A study of Homo sapiens with 9 samples.

Results

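The gene set examined here comprises 38 genes of the integrated stress response and the unfolded protein response, led by ATF4. The members were chosen by gene symbol, but with earlier results of these data known. All 38 had a value among the 14839 genes measured. RNA sequencing of polyA RNA was performed on MP41 cells, a GNA11-mutated uveal melanoma cell line, transfected with 66 nM of a synthetic miR-16 (a microRNA) or of the control mimic miR-CTR. Cells were harvested before transfection (0 h, in the miR-CTR series by its label) and at 6, 12, 24, and 48 h with each mimic, which gives 9 libraries and 1 library for each condition. All libraries came from this 1 cell line, and no culture without a mimic was followed after 0 h.

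Cells sense unfolded proteins in the endoplasmic reticulum (ER) through the kinase PERK (EIF2AK3), the nuclease IRE1 (ERN1), and the membrane-bound factor ATF6. PERK and related kinases phosphorylate eIF2α, which slows protein synthesis but favors translation of the ATF4 mRNA, and ATF4 then drives genes for amino acid synthesis, amino acid transport, and tRNA charging. IRE1 splices the XBP1 mRNA, and spliced XBP1 and cleaved ATF6 drive ER chaperones and the ER-associated degradation (ERAD) machinery. ATF4 and XBP1 are controlled largely by translation and splicing, which gene-level RNA values do not measure.

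The values were normalized read numbers on a log2 scale, with 1 added before the logarithm. LogFC is the log2 value with miR-16 minus the log2 value with miR-CTR at the same time. Early is the mean of 6 and 12 h and late is the mean of 24 and 48 h. A gene was counted as higher or lower when a difference passed 0.5 in size on the log2 scale, a 1.41-fold difference. No condition was replicated, so no test was run and how much cultures vary at any time is not known; a fit that takes the 4 times as replicates of a mimic was not made. The standard errors (SE) and 95% intervals given here cover counting error only, and the reads are not independent molecules.

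The libraries held 20260000 to 27360000 reads in the genes measured. The members had 119 to 36058 reads per library. Their mean level was 7.49 to 14.71 with a median of 10.77 on the log2 scale, against a median of 9.14 for all genes. Melanocytic genes were high in every library, PMEL from 16.54 to 17.47 and MITF from 13.15 to 13.67, whereas the leukocyte marker PTPRC, the endothelial marker PECAM1, and the epithelial marker EPCAM had no value. DCT, a melanin synthesis gene, went from 12.29 at 0 h to 14.38 with miR-CTR and 14.26 with miR-16 at 48 h.

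The mature miR-16 sequence is shown because its seed (bases 2 to 8, in capitals) sets which 3′UTR matches were sought in the members. The gene copies are MIR16-1 (chr13:50049027-50049048, minus strand) and MIR16-2 (chr3:160404754-160404775, plus strand), and both give this RNA (RefSeq, GRCh38.p14).
miR-16: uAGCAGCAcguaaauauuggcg
A match to this seed in each of PSAT1, CHAC1, CTH, and VLDLR is shown because these members had 4 of the 5 largest late logFC values, in one direction or the other. Capitals mark the match (GRCh38, sequence on the strand of the gene, longest annotated 3′UTR in GENCODE).
PSAT1 8mer (chr9:78329339-78329368, plus strand): tattttgccttTGCTGCTActttttctagt
CHAC1 8mer (chr15:40956070-40956099, plus strand): ccccccagtgcTGCTGCTAaccccacacca
CTH 7mer-A1 (chr1:70439128-70439154, plus strand): tattccagaGCTGCTAttagaagctgc
VLDLR 7mer-m8 (chr9:2655904-2655932, plus strand): cagagtttggcTGCTGCTctgaccctgct

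The comparison of miR-16 with miR-CTR asks which RNAs change when miR-16 is added. The 38 members did not move as a group. Late, 0 of 38 were higher with miR-16, against 7.76% of all genes, and 2 were lower (PSAT1 and CHAC1), against 5.73% of all genes. Early, 0 were higher (2.04% of all genes) and 1 was lower, CTH (1.45% of all genes). At 48 h alone, 2 were higher, XBP1 and VLDLR (10.4% of all genes), and 2 were lower, CHAC1 and PSAT1 (8.96% of all genes). The median logFC of the members was 0.025 early and -0.035 late, against 0.0 and 0.005 for all genes. Late, 19 of 38 members were within 0.1 of 0, as were 29.3% of all genes. All genes had a lower median level than the members, and this share was not taken for genes of like level. The wider band of 0.25 held 68.4% of the members and 61.3% of all genes. It held 67.9% of the genes expressed at least as high as the lowest member. A late mean near 0 can join opposite signs, as in SEL1L, with miR-16 at 11.79 against 11.93 at 24 h and 12.04 against 11.90 at 48 h. The members above miR-CTR at all 4 times numbered 7 (CBS, CEBPG, PDIA4, SHMT2, TRIB3, VLDLR, and XBP1), and 17.7% of all genes did this. The members below at all 4 times also numbered 7 (ATF5, CALR, CTH, EIF2AK3, PDIA6, PSAT1, and SESN2), against 16.7% of all genes.

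**Figure D1:**
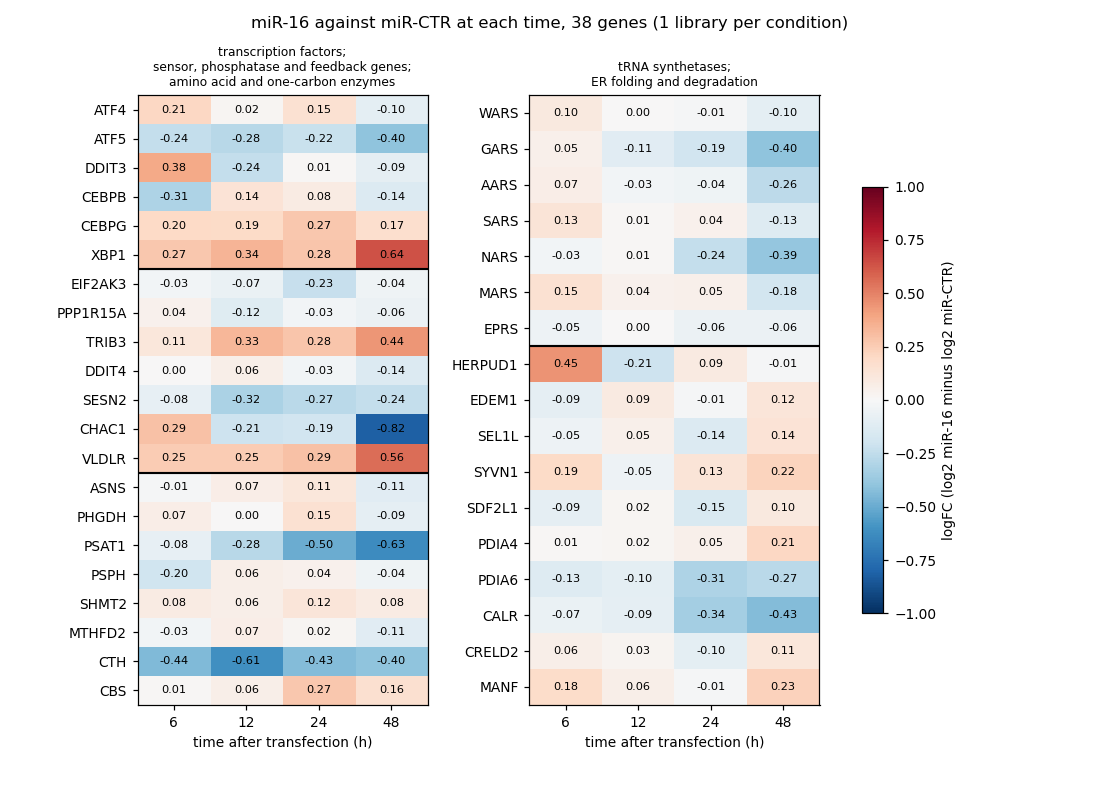
Heat map of logFC (log2 miR-16 minus log2 miR-CTR, color and printed value) for the 38 genes (vertical axis, grouped by role) at 6, 12, 24, and 48 h (horizontal axis), with 1 library per condition. Most cells are pale, and the darkest are CHAC1 at 48 h (-0.82), XBP1 at 48 h (0.64), PSAT1 at 48 h (-0.63), and CTH at 12 h (-0.61).

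Among the transcription factors, ATF4 itself (chr22:39519695-39522685) stayed within a narrow range. Its level was 12.93 at 0 h, 12.85, 12.94, 12.85, and 13.06 with miR-CTR at 6, 12, 24, and 48 h, and 13.06, 12.96, 13.00, and 12.96 with miR-16. The 2 highest ATF4 libraries, at 13.06, were miR-16 at 6 h and miR-CTR at 48 h, so the series of the mimics overlapped. Its logFC was 0.21, 0.02, 0.15, and -0.10. Per kilobase of exon at 0 h, ATF4 had 3100 normalized reads, close to the ER folding enzymes PDIA4 (3410) and PDIA6 (2990), below the ER chaperone CALR (13300, the highest member), and far above CTH (61.8, the lowest member).

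XBP1 (chr22:28794555-28800597), the IRE1-dependent activator of ER folding genes, was higher with miR-16 at every time. It was at 11.28 at 0 h, then 10.70, 11.07, 10.66, and 10.53 with miR-CTR, against 10.97, 11.41, 10.94, and 11.17 with miR-16. Both series dipped at 6 h and came back at 12 h, and at 48 h only the miR-16 library lay near the 0 h level. The late logFC was 0.46 (95% interval 0.393 to 0.527), that is, 137.6% of the miR-CTR level. CEBPG, a dimer partner of ATF4, was also higher with miR-16 at each time, with a late logFC of 0.22 (SE 0.083), at a low level of 8.10 to 8.64.

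ATF5, an ATF4-related factor, was lower with miR-16 by 0.22 to 0.40 at each time. This difference was small beside its course in time: from 9.17 at 0 h the miR-CTR libraries went to 9.72, 9.0, 8.31, and 7.98, and those of miR-16 to 9.48, 8.72, 8.09, and 7.58. ATF5 was the member that ended farthest below 0 h with each mimic. It overlaps NUP62 on the other strand, and whether reads were counted by strand is not given in the sources used here. The same limit holds for DDIT3 and MARS, which overlap each other on opposite strands, and for PDIA6, CRELD2, SYVN1, and WARS, which overlap other measured genes. DDIT3 (CHOP), a factor tied to cell death under ER stress, showed its largest logFC at 6 h (0.38), when its miR-16 library stood at 10.17 and its miR-CTR library at 9.79. At 12 h the direction was the opposite, with a DDIT3 logFC of -0.24 (9.51 against 9.75), and at 48 h the levels were 9.02 and 9.11. CEBPB, another bZIP factor, had a logFC of -0.31 at 6 h and between -0.14 and 0.14 afterwards.

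**Figure D2:**
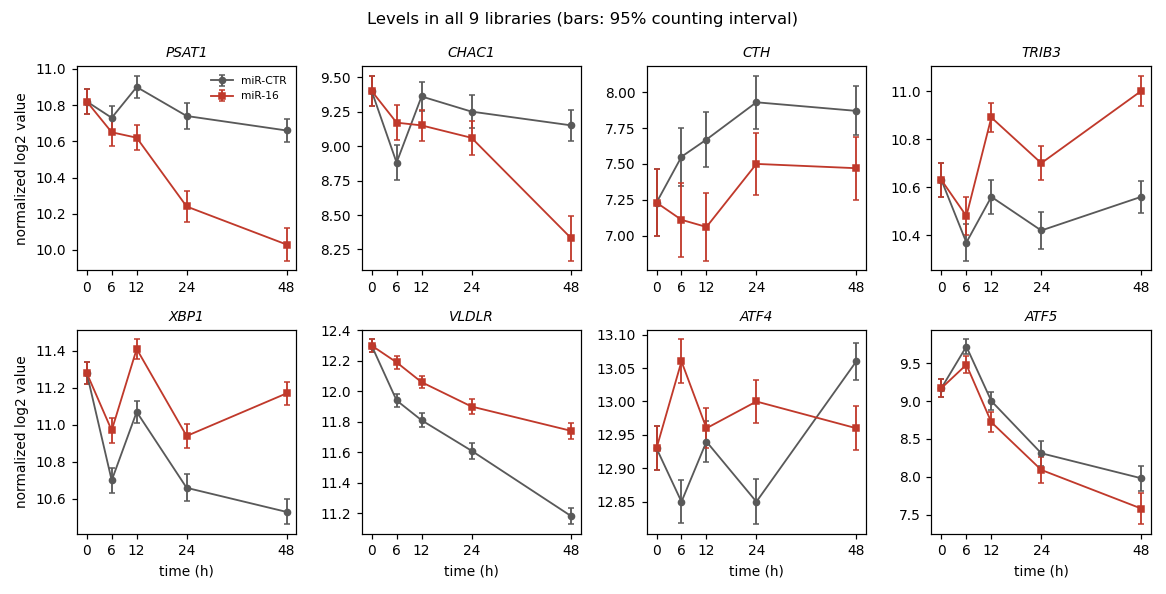
Normalized log2 value (vertical axes, scaled per gene) against time in hours (horizontal axes) for 8 members; gray circles are miR-CTR, red squares are miR-16, the 0 h library starts both lines, and bars are 95% counting intervals. PSAT1 with miR-16 ends at 10.03 against 10.66 with miR-CTR, XBP1, VLDLR, and TRIB3 lie higher with miR-16 at all 4 times, and ATF4 stays between 12.85 and 13.06.

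Among the sensor, phosphatase, and feedback genes, CHAC1, which degrades glutathione, had the largest single logFC of any member. It was at 9.40 at 0 h, then 8.88, 9.36, 9.25, and 9.15 with miR-CTR, against 9.17, 9.15, 9.06, and 8.33 with miR-16. The miR-16 library was above miR-CTR at 6 h (0.29) and below it by 0.21, 0.19, and 0.82 at the later times. The late logFC of -0.505 (95% interval -0.634 to -0.376) therefore rested on the 48 h library, since the 24 h value alone was -0.19.

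VLDLR, a lipoprotein receptor listed as an ATF4 target, went down with time in both series but less with miR-16. From 12.30 at 0 h the miR-CTR libraries went to 11.94, 11.81, 11.61, and 11.18, and those of miR-16 to 12.19, 12.06, 11.90, and 11.74. At each time the miR-16 library lay above that of miR-CTR, and the late logFC was 0.425 (95% interval 0.374 to 0.476). VLDLR overlaps VLDLR-AS1 on the opposite strand.

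TRIB3, a pseudokinase that restrains ATF4 and CHOP, was the only member whose late libraries lay above 0 h with one mimic and below it with the other. It was at 10.63 at 0 h, then 10.37, 10.56, 10.42, and 10.56 with miR-CTR, against 10.48, 10.89, 10.70, and 11.00 with miR-16. The side of 0 h was close for TRIB3, at -0.07 with miR-CTR at 48 h and 0.07 with miR-16 at 24 h. The 95% counting intervals of these libraries reach 0.067 and 0.071 to either side. The late logFC was 0.36 (95% interval 0.289 to 0.431), under the threshold of 0.5. SESN2, a stress-induced regulator of mTORC1, was lower with miR-16 by 0.32, 0.27, and 0.24 from 12 h on. The mTORC1 inhibitor DDIT4 (late logFC -0.085), the eIF2α phosphatase subunit PPP1R15A (-0.045), and the PERK gene EIF2AK3 (-0.135) differed less.

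Among the amino acid and one-carbon enzymes, the serine pathway split. PSAT1 (chr9:78297143-78330093), which makes phosphoserine, was at 10.82 at 0 h, then 10.73, 10.90, 10.74, and 10.66 with miR-CTR, against 10.65, 10.62, 10.24, and 10.03 with miR-16. The miR-CTR libraries stayed within 0.16 of 0 h, whereas the miR-16 libraries went down at each step, with a logFC of -0.08, -0.28, -0.50, and -0.63. The late logFC was -0.565 (95% interval -0.643 to -0.487), or 67.6% of the miR-CTR level. The enzymes before and after it in the pathway, PHGDH (late logFC 0.03) and PSPH (0.0), showed no such difference, nor did SHMT2 (0.10) and MTHFD2 (-0.045), which carry serine carbon into folate in mitochondria, or asparagine synthetase, ASNS (0.0). The ASNS value averages opposite signs, with miR-16 at 11.15 against 11.04 at 24 h and 10.81 against 10.92 at 48 h. The sign also differed between 24 and 48 h for PHGDH, PSPH, and MTHFD2.

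CTH, which makes cysteine from cystathionine, was the member with the fewest reads. It was at 7.23 at 0 h, then 7.55, 7.67, 7.93, and 7.87 with miR-CTR, against 7.11, 7.06, 7.50, and 7.47 with miR-16. CTH went above 0 h in every miR-CTR library and lay lower with miR-16 at each time, by 0.44, 0.61, 0.43, and 0.40. The early logFC was -0.525 and the late one -0.415 (95% interval -0.613 to -0.217). CBS, the enzyme before CTH in this pathway, had a late logFC of 0.215, but CBSL, annotated on the same chromosome (chr21:6444869-6468040), is a near-identical copy that could take part of its reads, so this value is uncertain.

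The 7 tRNA synthetases among the members had a late logFC below 0, as did 49.1% of all genes, with a median of -0.065. Of the 13 other cytosolic synthetases, 7 were below 0, with a median of -0.01. NARS (-0.315) and GARS (-0.295) lay lowest, and both widened from 24 to 48 h, NARS from -0.24 to -0.39 and GARS from -0.19 to -0.40. AARS was at -0.15, and WARS, SARS, MARS, and EPRS lay between -0.065 and -0.045. None passed 0.5.

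Among the 10 ER folding and degradation genes, the median late logFC was 0.022 and none passed 0.5. CALR and PDIA6 were lower with miR-16 and the others were close to 0 or slightly higher. CALR, a calcium-binding lectin chaperone, was at 15.14 at 0 h, then 14.96, 15.07, 14.70, and 14.36 with miR-CTR, against 14.89, 14.98, 14.36, and 13.93 with miR-16. Both CALR series went down after 12 h, and miR-16 went further, with a late logFC of -0.385 (95% interval -0.405 to -0.365) on the deepest counts of any member. PDIA6, a disulfide isomerase, had a late logFC of -0.29. Its relative PDIA4 was at 0.13, and SYVN1, the ERAD ubiquitin ligase, was at 0.175. HERPUD1, an ERAD component, stood out at 6 h with 10.21 with miR-16 against 9.76 with miR-CTR, a logFC of 0.45, was lower with miR-16 at 12 h (9.63 against 9.84, a logFC of -0.21), and was within 0.09 at 24 and 48 h.

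The change since 0 h asks how each series moved after transfection. It cannot be told apart from time in culture, since no untransfected culture was followed, and both mimics share the single 0 h library. Early, no member passed 0.5 in either direction with miR-CTR (3.08% of all genes above and 3.25% below) or with miR-16 (2.94% above and 3.05% below). This holds for the mean of 6 and 12 h. At 6 h alone, ATF5 (0.55), XBP1 (-0.58), and CHAC1 (-0.52) were past 0.5 in size with miR-CTR. With miR-16, DDIT3 (0.51) and SDF2L1 (-0.52) were past it at 6 h. The share of all genes at 6 h alone was not counted. Late, the members moved down. With miR-CTR, 11 of 38 were lower than at 0 h (9.79% of all genes) and 1 was higher, CTH (11.0% of all genes). With miR-16, 10 of 38 were lower (11.7% of all genes) and 0 were higher (14.1% of all genes), and at 48 h alone 17 were lower (16.2% of all genes). The members below 0 h in all 4 late libraries numbered 24 of 38, or 63.2%, against 29.2% of all genes. Only CTH, SARS, and SHMT2 were above 0 h in all 4, against 28.7% of all genes. The members' median late change was -0.212 with miR-CTR and -0.30 with miR-16, where the medians of all genes were 0.0 and -0.005.

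The ER folding and degradation genes made up most of the members past the threshold downward, 7 of 11 with miR-CTR and 6 of 10 with miR-16, and 9 of the 24 below 0 h in all 4 late libraries. With miR-CTR, these were SDF2L1 (-0.93), PDIA4 (-0.75), MANF (-0.66), CALR (-0.61), PDIA6 (-0.595), HERPUD1 (-0.56), and CRELD2 (-0.505). With miR-16, they were CALR (-0.995), SDF2L1 (-0.955), PDIA6 (-0.885), PDIA4 (-0.62), MANF (-0.55), and HERPUD1 (-0.52), and CRELD2 was at the threshold with -0.50. SDF2L1 is a cochaperone of the ER, and MANF and CRELD2 are secreted ER stress proteins. EDEM1, SEL1L, and SYVN1, which act in ERAD, moved least, from -0.215 to -0.06 with miR-CTR and from -0.215 to -0.005 with miR-16. Outside this group, the members past the threshold with miR-CTR were ATF5 (-1.025), VLDLR (-0.905), XBP1 (-0.685), and DDIT3 (-0.55). With miR-16 they were ATF5 (-1.335), CHAC1 (-0.705), PSAT1 (-0.685), and DDIT3 (-0.59). The 7 tRNA synthetases held none past the threshold with either mimic in the mean of 24 and 48 h, but at 48 h alone MARS (-0.60), WARS (-0.53), and NARS (-0.51) were past it with miR-16.

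The decline was not steady. PDIA4 was at 13.45 at 0 h, then 13.15, 13.56, 12.89, and 12.51 with miR-CTR, against 13.16, 13.58, 12.94, and 12.72 with miR-16. Both series dipped at 6 h, exceeded 0 h at 12 h, and then dropped, and the libraries of the mimics differed by 0.01 to 0.05 up to 24 h. MANF (9.70 to 10.20 with miR-CTR and 9.88 to 10.26 with miR-16) and SDF2L1 (9.95 to 10.18 and 9.86 to 10.20) also went up between 6 and 12 h. Of the 10 ER folding and degradation genes, 8 were higher at 12 h than at 6 h with both mimics, and CRELD2 was lower with both. Over the 38 members, 22 were higher with both mimics (30.5% of all genes) and 8 were lower with both (31.9% of all genes). This count has no threshold of size and was chosen after the values had been seen.

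**Figure D3:**
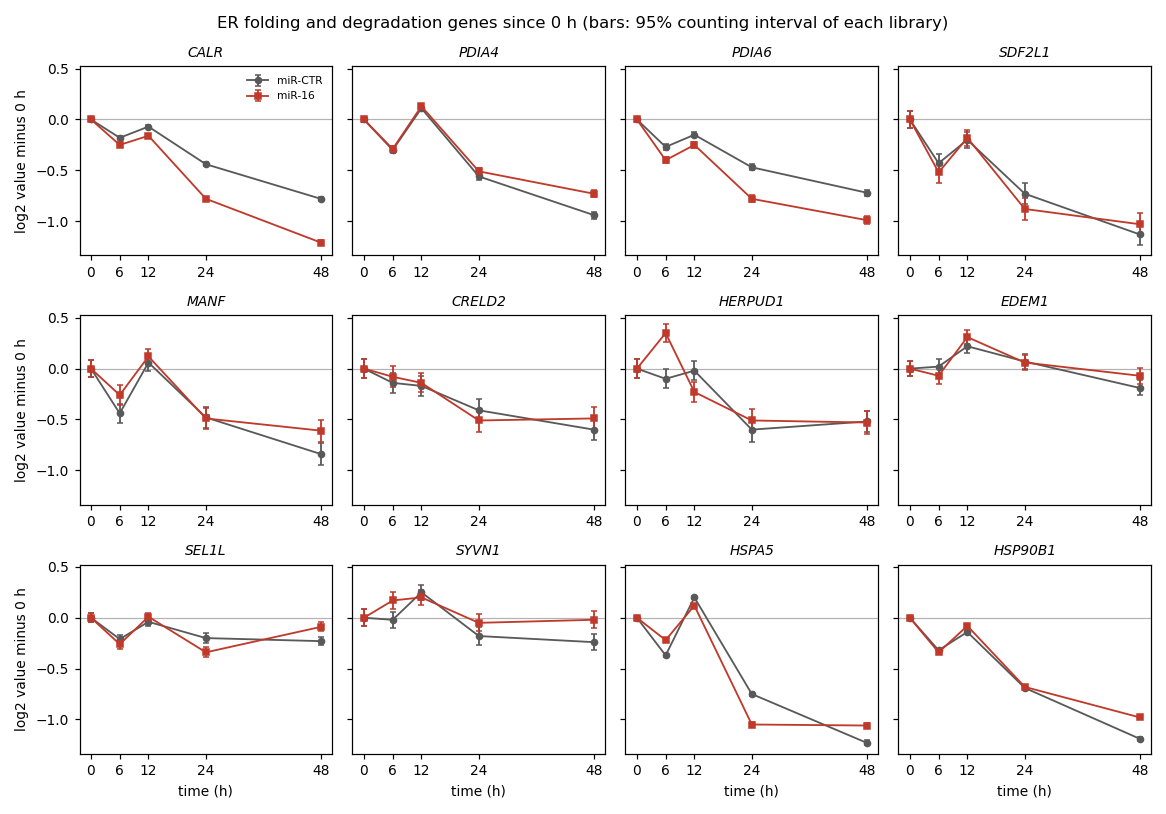
Log2 value minus the 0 h value (vertical axes) against time in hours (horizontal axes) for the 10 ER folding and degradation members and for HSPA5 and HSP90B1; gray circles are miR-CTR, red squares are miR-16, and bars are 95% counting intervals of each library. CALR, PDIA4, and PDIA6 end between -0.72 and -1.21, and PDIA4, MANF, and HSPA5 dip at 6 h and stand above 0 h at 12 h with both mimics.

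The late minus early difference draws on separate libraries for each mimic. By this measure 5 members were lower late with miR-CTR (ATF5, DDIT3, PDIA4, PPP1R15A, and SDF2L1), against 6.07% of all genes. With miR-16 the same measure gave 8 (ATF5, CALR, DDIT3, HERPUD1, PDIA4, PDIA6, PPP1R15A, and SDF2L1), against 8.50% of all genes. PSAT1 differed between the mimics here, at -0.115 with miR-CTR and -0.50 with miR-16, as did CHAC1, at 0.08 and -0.465.

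**Figure D4:**
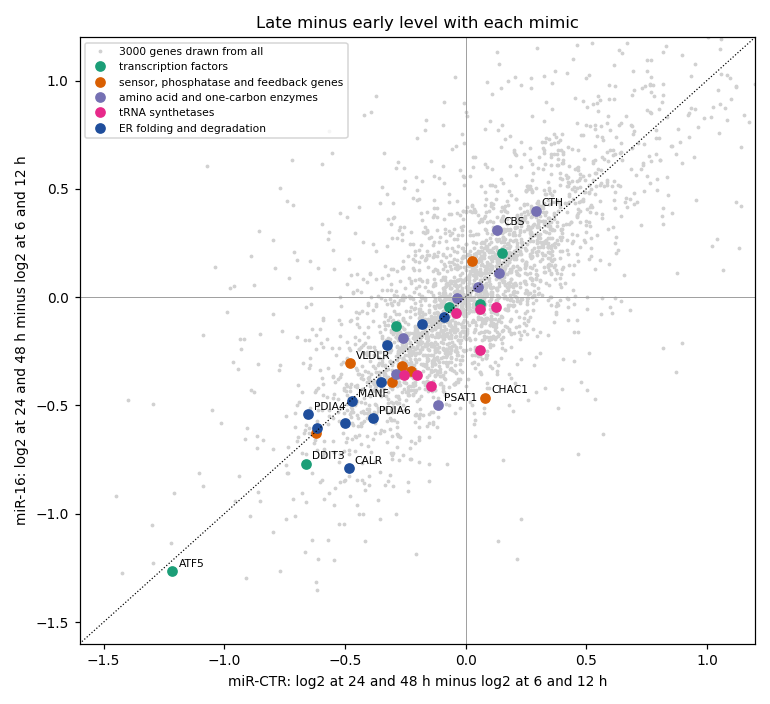
Late minus early log2 level with miR-CTR (horizontal axis) against the same with miR-16 (vertical axis) for the 38 members, colored by role, and for 3000 genes drawn from all (gray, those outside the axes not shown); the dotted line marks equal change. ATF5 lies farthest to the lower left, near the line, and CALR, PSAT1, and CHAC1 lie below the line.

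The other genes of these pathways numbered 84 with a value (of 88 listed). Their lists were also chosen with earlier results of these data known. Late, 3 were higher with miR-16, namely JDP2 (0.605), EDEM3 (0.59), and ERO1LB (0.58), against 7.76% of all genes, and 6 were lower (5.73% of all genes), namely SLC7A5 (-0.845), RARS (-0.84), ATF6 (-0.81), SLC7A11 (-0.585), ATF3 (-0.57), and SLC3A2 (-0.535). Their median late logFC was -0.007. JDP2 is a bZIP repressor, EDEM3 acts in ERAD, ERO1LB (ERO1B) is an oxidase of the ER, and ATF3 is a bZIP factor induced by ATF4. By list, 1 of 17 sensors, kinases, and initiation factors was lower (ATF6), 1 of 17 other ATF4 targets was higher and 4 were lower, 2 of 21 other ER chaperones and ERAD genes were higher, 1 of 13 other cytosolic tRNA synthetases was lower (RARS), and 0 of 16 mitochondrial tRNA synthetases passed.

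ATF6, the third sensor of ER stress, was at 10.98 at 0 h, then 10.88, 11.01, 11.07, and 11.08 with miR-CTR, against 10.71, 10.50, 10.30, and 10.23 with miR-16. The miR-CTR libraries stayed near 0 h and the miR-16 libraries went down at each step. SLC7A5, the light chain of the LAT1 transporter for leucine and related amino acids, was at 13.68 at 0 h, then 13.97, 13.96, 14.06, and 14.23 with miR-CTR, against 13.88, 13.53, 13.40, and 13.20 with miR-16. It went up with the control and down with miR-16, and the logFC reached -1.03 at 48 h. Its heavy chain SLC3A2 had a logFC of 0.0, -0.22, -0.42, and -0.65, and the arginine transporter SLC7A1 had -0.07, -0.21, -0.38, and -0.53. The cystine transporter SLC7A11, which pairs with the same chain, was lower at each time, by 0.31, 0.30, 0.62, and 0.55. The arginyl-tRNA synthetase RARS was at 11.96 at 0 h, then 12.01, 11.96, 11.94, and 11.55 with miR-CTR, against 11.75, 11.38, 11.10, and 10.71 with miR-16. Unlike the 7 member synthetases, RARS was already lower by 0.58 at 12 h. ERN1, the IRE1 gene, had a late logFC of 0.305, and EIF2S1, which encodes eIF2α, was at -0.06. Of the 21 other ER chaperones and ERAD genes, 6 were lower than at 0 h late with miR-CTR (9.79% of all genes) and 8 with miR-16 (11.7% of all genes), and 0 were higher with either. HSPA5 (BiP) changed since 0 h by -0.99 with miR-CTR and -1.055 with miR-16, HSP90B1 by -0.94 and -0.83, and CANX by -1.175 and -0.745.

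**Figure D5:**
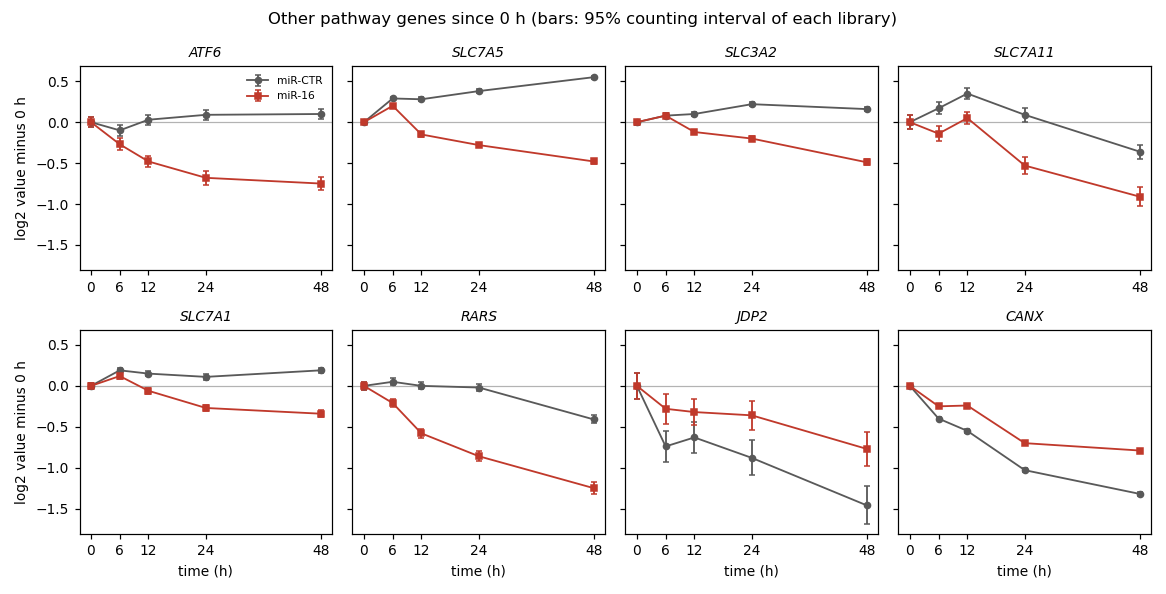
Log2 value minus the 0 h value (vertical axes) against time in hours (horizontal axes) for 8 pathway genes outside the 38; gray circles are miR-CTR, red squares are miR-16, and bars are 95% counting intervals of each library. ATF6, SLC7A5, SLC3A2, and SLC7A1 separate after 6 h, with both late miR-CTR libraries above 0 h and both late miR-16 libraries below it.

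Matches to the miR-16 seed in the 3′UTR (the 7mer-m8, 7mer-A1, and 8mer forms shown above in capitals) were found in 11 of 38 members, or 28.9%, and in 29.2% of all measured protein-coding genes. The 11 were CEBPG, CHAC1, CTH, MARS, NARS, PDIA6, PPP1R15A, PSAT1, SEL1L, SESN2, and VLDLR. Their median late logFC was -0.255, and that of the members without a match was 0.0. The 9 with an 8mer or 7mer-m8 had a median of -0.065, since this leaves out CTH and NARS. Over all genes these medians were -0.085 and 0.015. Within the 11 the values ran from -0.565 (PSAT1) to 0.425 (VLDLR), so a match went with both signs. VLDLR had 3 matches, of which those at bases 3786-3792 and 3789-3795 of the 3′UTR overlap. Overlapping matches were also found in CHAC1 (304-310 and 307-314) and SESN2 (1394-1400 and 1397-1403). The members without a match included CALR, ATF5, and GARS, which were lower with miR-16. Of the other pathway genes, 16 of 84 (19.0%) had a match. Among them were ATF6 and SLC7A5, each with 1 match shown for comparison with those of the members. Not shown are a 7mer-m8 of ATF6 (bases 67-73) and a 7mer-A1 of SLC7A5 (bases 2218-2224).
ATF6 8mer (chr1:161962912-161962941, plus strand): attaggattgtTGCTGCTAatatgaatacc
SLC7A5 7mer-m8 (chr16:87830244-87830272, minus strand): atgctcagcctTGCTGCTctgcgtggcgc
RARS, SLC3A2, and SLC7A11 had none in the annotated 3′UTR. A match is a stretch of letters and no measure of binding.

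Promoter windows (250 bases before to 50 after each start listed for a gene) were matched for 36 of 38 members and searched on both strands. A gene could have more than 1 window and was counted when any of them held the letters. PSPH and SHMT2 were not matched. The members were listed as genes of the responses that use the elements sought, so a share above that of all genes may follow from the list. The letters TGATGNAA, the core of the element that ATF4 binds with its partners, were in 8 of 36 members (22.2%), against 2.71% of all 10311 genes with a window. They were in AARS, ASNS, CEBPG, CHAC1, GARS, HERPUD1, MARS, and NARS. The exact form TGATGCAA, which is 1 of the forms counted above, was in 6 (16.7%, against 0.698%). The ER stress element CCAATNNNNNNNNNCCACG was in 4 of 36 (11.1%), against 0.165% of all genes with a window, and TGACGTGG, an XBP1 element, was in 0 of 36 (1.23% of all). The 4 members with the ER stress element are shown because all 4 were below 0 h in every late library. This held for 63.2% of all members and 29.2% of all genes. The median late change of these 4 was -0.603 with miR-CTR and -0.693 with miR-16, against -0.198 and -0.3 for members without it. Over all genes with a window, the 17 with the element had medians of -0.34 and -0.26, against -0.005 and -0.02 for those without it. These 17 are not a separate set, since they include the same 4 members and 5 of the other pathway genes. Whether the element bears on the decline was not tested. Capitals mark the element, which reads on the gene's own strand in PDIA6 and XBP1 and on the other strand in CALR and CRELD2.
CALR (chr19:12938379-12938407, plus strand): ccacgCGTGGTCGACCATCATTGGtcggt
CRELD2 (chr22:49918549-49918577, plus strand): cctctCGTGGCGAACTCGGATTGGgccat
PDIA6 (chr2:10812848-10812876, minus strand): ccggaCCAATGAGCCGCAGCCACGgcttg
XBP1 (chr22:28800598-28800626, minus strand): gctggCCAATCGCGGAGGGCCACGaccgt
The same letters were in the promoters of HSPA5, HSP90B1, CANX, SERP1, and ERO1LB among the other pathway genes. The 8 members with TGATGNAA showed no common course: their median late logFC was -0.107, and their median late change was -0.135 with miR-CTR and -0.33 with miR-16. CHAC1, which had the largest 48 h difference between the mimics, and ASNS, whose late mean logFC was 0.0, both carried it.
CHAC1 (chr15:40953251-40953280, plus strand): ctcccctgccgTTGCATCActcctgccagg
ASNS (chr7:97872458-97872487, minus strand): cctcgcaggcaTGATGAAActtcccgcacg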

How the data were processed

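RNA sequencing of polyA RNA was performed on MP41 cells, with 1 library per condition. The authors deposited log2 values, 1 per gene and library, made from read counts divided by a size factor, with 1 added before the log2. Per the submitters' processing notes, FastQC, STAR 2.4.0a, and featureCounts (Subread 1.5.0-p3) were used with hg38. The annotation, the size factors, the filter on low genes, and strandedness are not given in the sources used here. The table names its columns by time index, not in hours, and the indices were matched to 0, 6, 12, 24, and 48 h in rising order. Read numbers were recovered from the steps between low values, which were whole in 100.0% of cases. Differences of log2 values were computed with Python 3.11.15 and pandas 2.3.3, and a difference past 0.5 in size, the study's threshold, was called. No condition was replicated, so no test was run and variation between cultures is unknown; a fit with the 4 times as replicates was not made, and 95% intervals rest on the counting SE alone. The scripts were tested on simulated data. Positions and 3′UTRs came from GENCODE 29 (GRCh38), and promoters and miR-16 from RefSeq (GRCh38.p14). Every member was named. Other pathway genes were named where late logFC passed the threshold or where they define a branch (HSPA5, ATF6, ERN1, ATF3, and EIF2S1); SLC7A1, HSP90B1, CANX, SERP1, MBTPS1, DARS, and HARS2 were named after their values or sequences were seen. The members and lists were chosen with earlier results of these data known. Alternative normalizations, thresholds, pseudocounts, times, and references were tried.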

Additional observations from a re-analysis of the deposited data

Results flagged for a closer look

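For 1 member and 7 other pathway genes, both late miR-CTR libraries lay on one side of the 0 h level, both late miR-16 libraries lay on the other, and the late logFC passed 0.25 in size. The difference was not tested for any of them, since each condition had 1 library, and both mimics share the 0 h library. The member was TRIB3, with a late logFC of 0.36. The amino acid transporter genes SLC7A5 (-0.845), SLC3A2 (-0.535), and SLC7A1 (-0.455) were above 0 h with miR-CTR and below it with miR-16, as were ATF6 (-0.81) and the mitochondrial histidyl-tRNA synthetase HARS2 (-0.35). MBTPS1 (0.31), a protease that cleaves ATF6, and DARS (0.295), the aspartyl-tRNA synthetase, were below 0 h with miR-CTR and above it with miR-16. Some sides were not resolved beyond counting error: with miR-CTR at 48 h, TRIB3 was at -0.07, DARS at -0.04, and HARS2 at 0.01 from 0 h. The pattern held in 2.63% of the members, in 8.33% of the other pathway genes, and in 7.71% of all genes.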

How the results depend on the processing

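No replicate could be left out, since each condition had 1 library and the labels give no replicate numbers; the mimics pair by time, but a fit with the 4 times in place of replicates was not run. Late, the 0 members higher became 1 with quantile normalization (XBP1) and 2 at 48 h alone. The 2 lower became 0 at a 1.5-fold threshold, at 24 h alone, and where both times had to pass, 1 with a pseudocount of 16 or scaling to library totals, and 10 with 0 h as the reference, which moved the median late logFC from -0.035 to -0.3 and turned JDP2 to -0.565 and EDEM3 to -0.21. Early, the 1 lower became 0 at 1.5-fold, with a pseudocount of 16, and at 6 h alone. With 6 and 12 h as the reference, chosen after seeing the data, miR-CTR gave 5 lower instead of 11 and 0 higher instead of 1. At 48 h alone, miR-16 gave 17 lower instead of 10. Centering, the pseudocount, and library totals left all 122 single-gene late logFC values within counting error. Quantile normalization moved 4 of the 122 beyond it, 24 h alone moved 51, and 48 h alone moved 51. With 0 h as the reference, 94 moved and 2 reversed (JDP2 and EDEM3). Depth limited CTH most.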
